A study of Mus musculus with 9 samples.

Results

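The genes described here were taken to stand for the core proteins of the spliceosome. They cover proteins of the small nuclear ribonucleoproteins (snRNPs), LSm proteins, the PRPF splicing factors and the SF3a and SF3b complexes. They were chosen by name, as the rows of the count table whose Ensembl identifier maps to a protein-coding symbol beginning with Snrp, Snrnp, Lsm and a digit, Prpf, or Sf3a or Sf3b and a digit. This name rule also took LSm genes whose products act outside splicing, such as Lsm11. It found 54 genes among 22165 gene rows, and 52 of them passed the filter on low counts, as did 10781 genes in all. Messenger RNA was measured in bone marrow-derived macrophages of C57BL/6N mice aged 6 to 16 weeks, and every culture received 100 ng/mL lipopolysaccharide (LPS) for 24 h. The 3 libraries of the first group are labelled wild type (WT), 3 are labelled Irg1 knockout (KO), and 3 are labelled Irg1 knockout with 1 mM itaconate added 4 h after LPS (itaconate group). Irg1, also called Acod1, encodes the mitochondrial enzyme that makes itaconate, and both knockout groups are labelled as lacking it. No unstimulated culture is among the 9 libraries, so nothing here measures the response to LPS itself. Whether replicates are separate animals or cultures is not stated in the labels. The p-values below therefore refer to the spread between these libraries, which may be technical.

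The spliceosome removes introns from pre-messenger RNA. The U1 snRNP recognises the 5′ splice site, the U2 snRNP with SF3a and SF3b binds the branch site, and the U4/U6.U5 tri-snRNP then joins and is remodelled into the catalytic enzyme. Each spliceosomal small nuclear RNA except U6 and U6atac carries a ring of Sm proteins, U6 carries a related ring of LSm proteins, and the U11/U12 snRNP serves a minor class of introns. In activated macrophages, inflammatory transcripts are made in large amounts and must be spliced before export, and intron retention is a known level of control in these cells.

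The libraries held 7361671 to 20430359 reads assigned to genes, and the 54 genes took 0.43% to 0.61% of them. The deleted gene went against 4 of the 9 labels. Reads of Acod1 numbered 94, 117 and 31169 in WT 1, 2 and 3, 154, 170 and 44920 in KO 1, 2 and 3, and 94, 8 and 60716 in itaconate 1, 2 and 3, by their labels. The libraries labelled WT 1 and WT 2 therefore had few reads of a gene they should express, and those labelled KO 3 and itaconate 3 had many of a gene they should lack. Directions below hold for the labels as given, and the differences tested for named genes are also given without these 4 libraries, an alternative chosen after the data were seen that leaves WT 3 alone, KO 1 and 2, and itaconate 1 and 2. The description labels carry a number read here as a sequencing pool: WT 1 to 3 and KO 1 and 2 carry 1, KO 3 and itaconate 1 carry 2, itaconate 2 carries 3 and itaconate 3 carries 4, so that pool and group are largely confounded. The library labelled itaconate 3 differed from the rest: its correlation with other libraries averaged 0.909 against 0.939 to 0.954. The counter assigned 33.7% of its reads to no feature of the annotation, against 23.1% to 28.4% elsewhere. Which features were counted is not given, so such reads may still lie within genes. Mitochondrial genes took 0.71% of the gene reads of itaconate 3 against 1.27% to 2.57%. All 10 macrophage markers examined were detected in every library, with a summed level of 6735 CPM (counts scaled to a common library total) in itaconate 3 and 9400 to 14066 in the others. Markers of T cells summed to 0.423 to 2.04 CPM, of B cells to 0.272 to 1.47 and of dendritic cells to 1.47 to 3.33, neutrophil markers to 72.8 to 258 and fibroblast markers to 167 to 274. The defining lymphocyte genes Cd3e, Cd79a and Pax5 were at 0 reads in every library. In bulk RNA, fewer cells of a type and less RNA per cell cannot be told apart.

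A few core spliceosome genes held most of the members' reads, and the share of members at high levels was near that of all genes. Of the 52 genes that passed the filter, 10 had a mean above 100 CPM (19.2%, against 17.4% of all genes tested), 38 lay between 10 and 100 CPM and 4 lay under 10 CPM. Members' CPM are also scaled by the trimmed mean of M-values (TMM) method and are not divided by transcript length, since reads come from oligo-dT-primed cDNA. Among the most abundant was Prpf38b, a homologue of an activation factor, at 729 CPM. Sf3b2 and Sf3b1, subunits of the SF3b complex that holds the branch site, were at 575 and 504 CPM. The 10 most abundant genes held 71.4% of the reads of all members. By role, the 8 LSm ring genes ranged from 3.03 CPM for Lsm7 to 23.0 CPM for Lsm3, with a median of 16.5, and the 3 U11/U12 genes had a median of 13.5. The 7 measured Sm ring genes had a median of 61.9 CPM and ranged from 9.49 for Snrpg to 93.1 for Snrpb. The 11 genes of the U2 snRNP ranged from 6.82 CPM for Sf3a2 to 575 for Sf3b2, the widest range of the 8 roles as a ratio (84.3 times). Exons of Sf3a2 overlap by 429 bases with those of Plekhj1 on the other strand. Plekhj1 had 3398 reads in all libraries against 627 for Sf3a2, and any effect on the Sf3a2 count was not tested.

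A pair of members did not pass the filter. Snrnp40, a U5 snRNP protein, had 0 reads in all 9 libraries, which allows up to 3 reads in each, or 0.147 to 0.408 CPM. Snrpn, the neuronal paralogue of the Sm protein gene Snrpb, had 1 read in all libraries together, while Snrpb had 54.9 to 121 CPM. Reads with several alignments, 17.1% to 19.96% of a library, were set aside by the counter. None of the 50-base stretches in the last 500 bases of the Snrnp40 transcript occurs in another gene's transcript. Exons of Snrpn overlap on the same strand with those of Gm38393 by 589 bases and of Snurf by 216. Why Snrnp40 and Snrpn had so few reads, including any loss in the authors' annotation or counting, was not tested. Among other paralogues, Lsm14a, whose product acts in cytoplasmic RNA granules, lay 1.81 to 3.92 times above Lsm14b. Lsm1 and Lsm8, which set apart the cytoplasmic decay ring and the nuclear U6 ring, lay at nearly equal levels, with a ratio of 0.908 to 1.29.

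**Figure D1:**
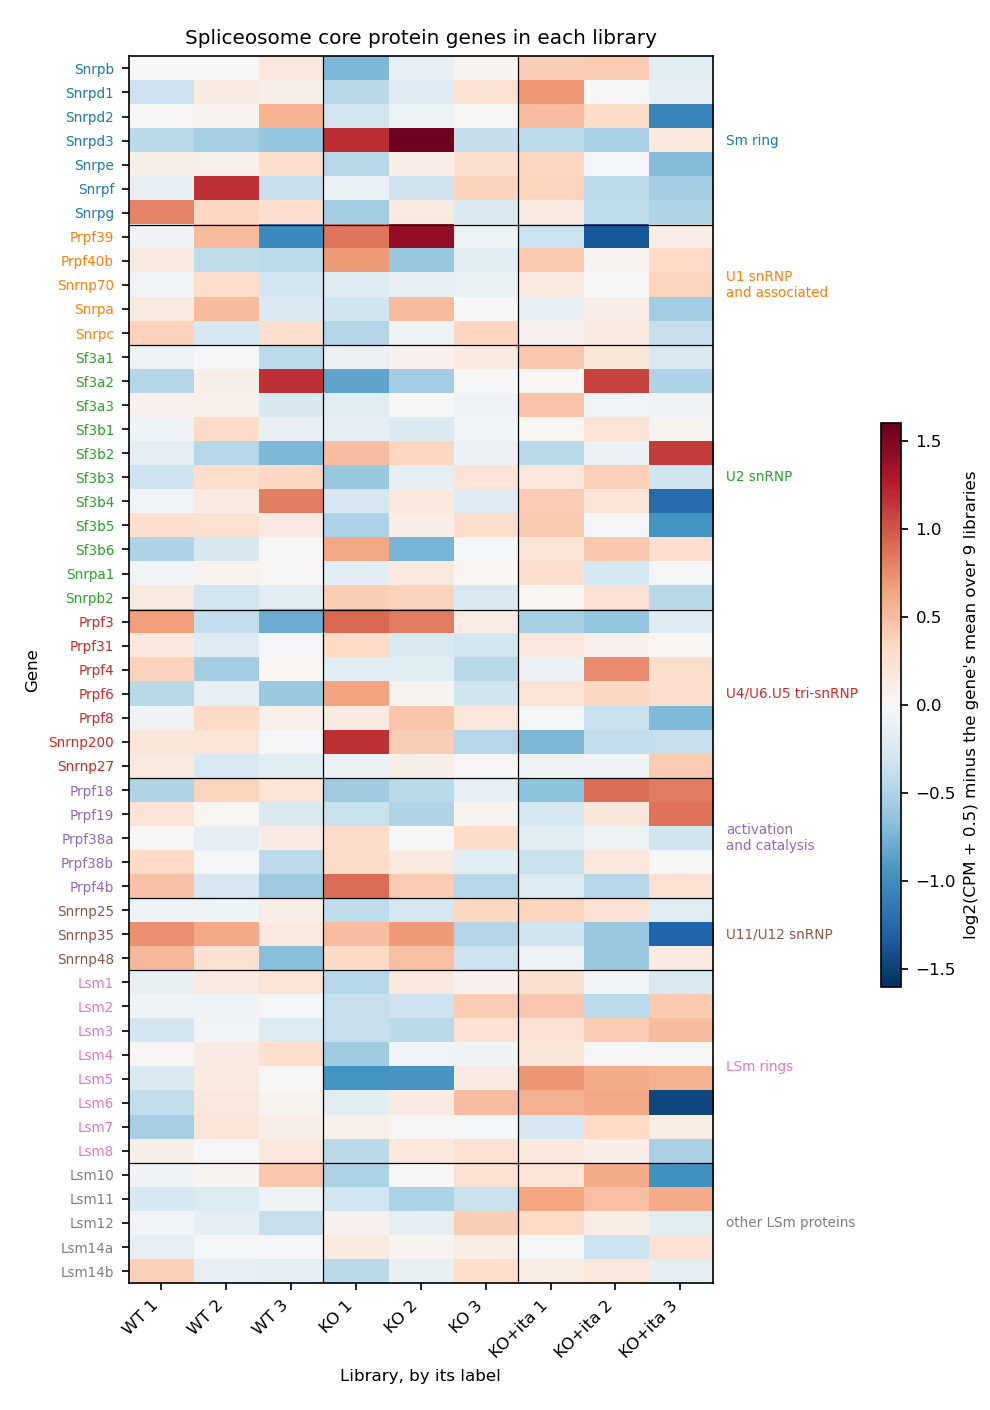
Level of each of 51 measured genes (rows, coloured and grouped by role) in each of the 9 libraries (columns, by label), as log2(CPM + 0.5) minus the gene's mean over the libraries. Snrpd3 and Prpf39 stand out in KO 1 and KO 2, Lsm5 and Lsm11 in the itaconate libraries, and Lsm6, Sf3b4 and Snrpd2 are lowest in itaconate 3.

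The genes varied little between libraries. The median standard deviation within a group was 0.36 on the log2 scale for the 52 genes, against 0.43 for all genes tested, whose median mean level was lower (21.9 against 38.1 CPM). The highest library exceeded the lowest by a median of 2.21 times for the members and 2.72 times for all genes. Sf3b1 was the steadiest, at 480, 619 and 463 CPM in WT, 449, 429 and 486 in KO, and 514, 583 and 516 in the itaconate group, a range of 1.44 times. Prpf39, a U1 snRNP-associated factor, was the most variable, with a range of 6.90 times. The library labelled itaconate 3 was the lowest of the 9 for 13 members (25.0%, against 26.0% of all genes) and the highest for 6 (11.5% against 19.9%). Among those lowest there, Lsm6 stood at 4.55 CPM against 10.1 to 20.6 in the other 8 libraries, Sf3b4 at 14.9 against 29.4 to 63.0, and Snrpd2 at 14.6 against 25.0 to 45.5. Sf3b2 was at its highest there, at 1158 CPM against 323 to 754.

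Several of the most abundant members carried adenine-rich stretches in their coding sequence, a feature examined after the levels were known. Per the labels' protocols, cDNA was primed with oligo-dT. For each gene the richest 20 bases were sought in the longest protein-coding transcript of GENCODE M21, leaving out the last 100 bases. The median count in this window was 13 adenines for the members and also 13 for all genes tested. The windows below are those of 3 of the most abundant members and, for contrast, of 2 Sm ring genes. They are messenger-sense DNA letters, 5′ to 3′, with adenines in capitals.
Sf3b1: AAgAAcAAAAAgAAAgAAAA
Prpf38b: AAAAAAgAgtccAAgAAAAA
Prpf4b: AcAAAAAAAAgAAgcAtAAA
Snrpf: cAAAtAcAgAAgAgtAcAtA
Snrpd2: AAgggcAAgAAgAAAtccAA
On GRCm38, the Sf3b1 window lies in coding exon 11 at chr1:55003155-55003174 on the minus strand and holds 16 adenines. The Prpf38b window lies in the last exon, exon 6, at chr3:108904280-108904299 on the minus strand and holds 14, and the window of Prpf4b, a kinase gene, lies in exon 2 at chr13:34883320-34883339 on the plus strand and holds 15. The windows of Snrpf at chr10:93584071-93584090 on the minus strand and Snrpd2 at chr7:19152537-19152556 on the plus strand hold 11 each. Mean levels were 80.9 CPM for Snrpf and 32.2 CPM for Snrpd2. Of the other measured Sm ring genes, Snrpe and Snrpd3 hold 14, Snrpb holds 12, and Snrpd1 and Snrpg hold 11.

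The 25 members whose richest window held at most 12 adenines had a median level of 23.0 CPM, the 14 with 13 or 14 had 58.1 CPM, and the 13 with 15 or more had 85.7 CPM. Of the 10 members above 100 CPM, 1 fell in the lowest class, 3 in the middle and 6 in the highest. Across the 52 genes, Spearman's rho between adenines and mean CPM was 0.54, against 0.23 over 10707 genes. These are correlations across genes that share the same libraries, and the adenine count also went with transcript length (rho 0.52 in both sets), while length itself had a rho of 0.31 with the members' level. The adenine count also went with the difference between itaconate 3 and the other 8 libraries, with a rho of 0.47 over members and 0.36 over all genes. Lsm7 and Lsm11 lay off the pattern, with 15 and 18 adenines at 3.03 and 21.2 CPM. Whether reads arose at these stretches was not tested, since the counts carry no positions.

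**Figure D2:**
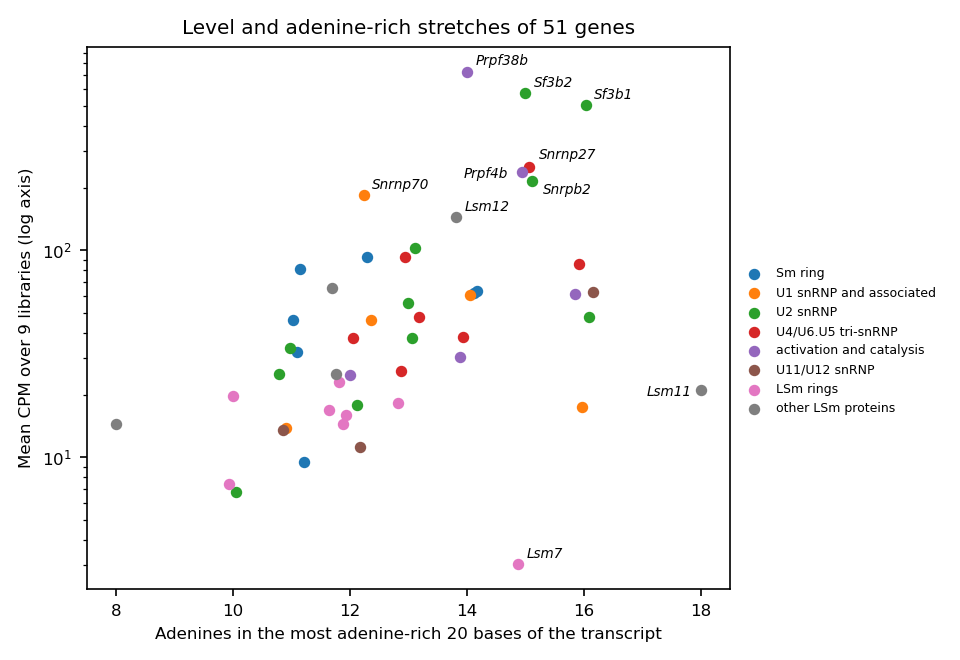
Mean level over 9 libraries (CPM, log axis) against the number of adenines in the richest 20 bases of the transcript, for 51 genes coloured by role; points are spread slightly sideways. Prpf38b, Sf3b2 and Sf3b1, at 729, 575 and 504 CPM, have 14, 15 and 16 adenines, and the LSm ring genes lie at 13 or fewer except Lsm7.

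The first comparison, KO against WT, asked whether loss of the itaconate-producing enzyme changed these transcripts. No member passed the test. The largest difference was in Snrpd3, which encodes the Sm ring protein SmD3 and lies at chr10:75517551-75537381 on the plus strand (GRCm38). Its levels were 38.6, 36.1 and 33.8 CPM in WT 1, 2 and 3, 119, 155 and 40.1 in KO 1, 2 and 3, and 39.2, 36.3 and 58.9 in the itaconate libraries. KO 1 and KO 2 lay far above every other library, and KO 3 lay only just above WT. The difference was 1.54 ± 0.40 (SE) on the log2 scale, with an adjusted p of 0.995 by edgeR's quasi-likelihood test with Benjamini-Hochberg adjustment over all genes tested. Within pool 1, which holds the 3 WT libraries and KO 1 and 2, the log2 difference was 1.94, and without the 4 libraries against their Acod1 labels it was 2.04 ± 0.47 (SE), with an edgeR Benjamini-Hochberg adjusted p of 0.163. Over all alternatives the edgeR, DESeq2 and limma adjusted p of Snrpd3 ran from 0.094 to 1.

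Counts over the members were close to the background. None of the 52 was called by edgeR at an adjusted p under 0.05, and neither were any of the 10781 genes tested (0%). DESeq2 and limma-voom also called no member here. At an unadjusted p under 0.05 edgeR listed 1 member, Snrpd3, or 1 of 52 against 3.13% of all genes. KO lay wholly above WT for Lsm14a, Sf3b2 and Snrpd3, 3 of 52 against 4.85% of all genes, and wholly below for Lsm4, Lsm11 and Snrpg, 3 of 52 against 5.76%. The signs were divided, with 23 members higher and 29 lower, and the median log2 difference was -0.056, against -0.01 over all genes.

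By role, 6 of the 7 measured Sm ring genes were lower in KO than in WT by the fitted value, with Snrpd3 the exception. Of all 10781 genes tested, 5509 were lower. The median log2 difference of the Sm ring genes was -0.31, smaller in size than their median SE of 0.35. Snrpf was at 68.4, 170 and 58.3 CPM in WT and 70.4, 59.7 and 97.4 in KO. Snrpg, the Sm G protein gene, was at 16.1, 11.5 and 10.97 CPM in WT and 6.01, 10.1 and 7.68 in KO. Among U2 snRNP genes, Sf3b2 was at 478, 388 and 323 CPM in WT and 754, 678 and 502 in KO, a log2 difference of 0.70 ± 0.37 (SE). KO lay above WT there without overlap. The libraries highest in Sf3b2, itaconate 3, KO 1 and KO 2, were also the 3 with the largest shares of reads assigned to no feature. These shares were 33.7%, 28.4% and 26.9%, and the part of this in the result was not tested. Of the tri-snRNP genes, Prpf3, which encodes a U4/U6 protein, differed by 0.71 ± 0.37 (SE), with 38.3, 18.04 and 13.5 CPM in WT and 45.4, 42.9 and 25.8 in KO, ranges that overlapped through WT 1.

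For the remaining roles the gene with the smallest p differed as follows on the log2 scale. Prpf39 differed by 0.92 ± 0.45 (SE) among the U1 genes, and Lsm5, of the LSm ring, by -0.50 ± 0.33 (SE). Prpf4b, a kinase that phosphorylates tri-snRNP proteins, differed by 0.44 ± 0.37 (SE), from 0.098 without KO 1 to 0.80 without WT 1, and Lsm12, an LSm protein outside the rings, by 0.31 ± 0.27 (SE). Snrnp35, a protein of the U11/U12 snRNP, differed by -0.21 ± 0.38 (SE). Every one of these, and of the Prpf3 and Sf3b2 differences above, had an adjusted p of 0.995 by edgeR with Benjamini-Hochberg adjustment. Without the 4 libraries against their Acod1 labels, the log2 difference was 2.22 for Prpf39, 1.73 for Prpf3, 1.17 for Sf3b2, 1.28 for Prpf4b, 0.36 for Lsm12, -0.96 for Lsm5 and, with its sign turned, 0.47 for Snrnp35. None of these was called, the lone WT library being assumed to vary like the other groups.

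**Figure D3:**
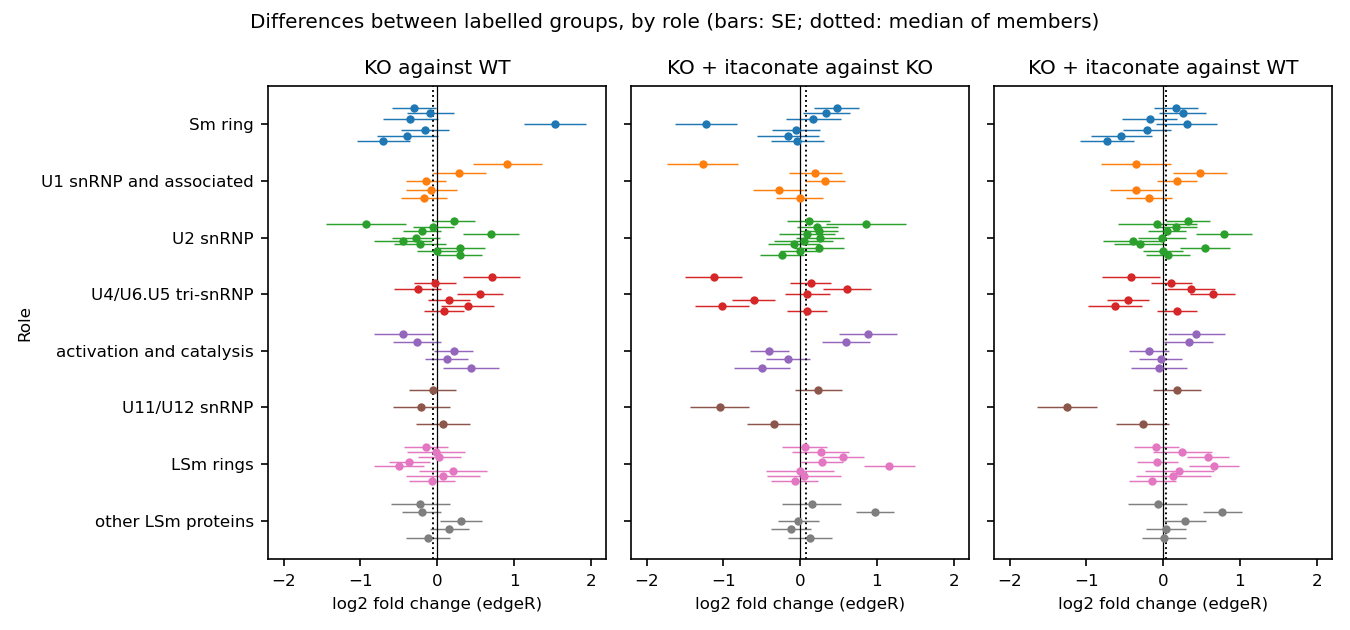
Log2 fold change of each of 51 genes in the 3 comparisons, grouped by role, with the standard error as bars and the median of all members as a dotted line. Most points lie within 1 log2 unit of 0; 1, 6 and 1 genes lie beyond it in the comparisons from left to right.

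The second comparison, itaconate against KO, asked what added itaconate did in cells labelled as lacking the enzyme. No member was called by edgeR at an adjusted p under 0.05, as for all genes tested (0%), nor by limma-voom. DESeq2 gave an adjusted p to only 9 of 53 members here, after its own filter on low counts, and to none of those listed next, so it has no bearing on them. At an unadjusted p under 0.05 edgeR listed 9 of 52 members against 8.3% of all genes: Lsm5, Lsm11 and Prpf18 with higher values in the itaconate group, and Snrpd3, Prpf3, Prpf8, Prpf39, Snrnp35 and Snrnp200 with lower. The itaconate libraries lay wholly above KO for 6 of 52 members (Lsm4, Lsm5, Lsm11, Prpf4, Sf3b1 and Snrnp70) against 5.61% of all genes, and wholly below for 3 (Prpf3, Prpf8 and Prpf38a) against 5.29%. The fitted value was higher for 30 members and lower for 22, with a median of 0.073, against -0.02 over all genes. This comparison shares its KO libraries with the first, so a high KO value enters both with opposite signs. Only KO 3 and itaconate 1 share a pool here, so a value with pool as a term is the difference between these libraries alone. KO 3 is also among the libraries against their Acod1 labels. Such a value cannot tell apart pool and the choice of libraries.

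The smallest p-values in this comparison were those of the LSm genes Lsm11 and Lsm5. Lsm11 encodes a protein of the U7 snRNP, which processes the 3′ ends of histone transcripts and takes no part in splicing, and lies at chr11:45928269-45944935 on the minus strand. Its levels were 31.6, 28.5 and 30.9 CPM in the itaconate libraries, 16.3, 14.1 and 15.7 in KO and 16.8, 17.3 and 19.1 in WT. All 3 itaconate libraries, from 3 pools and on both sides of the Acod1 discrepancy, lay above all 6 others. The log2 difference from KO was 0.98 ± 0.25 (SE), with an edgeR Benjamini-Hochberg adjusted p of 0.507. It was 0.95 without the 4 libraries (edgeR Benjamini-Hochberg adjusted p = 0.163, the lowest over its alternatives, the highest being 0.955) and 1.00 with pool as a term. Lsm10, which encodes the partner of Lsm11 in the U7 ring, stood at 16.2, 20.9 and 6.77 CPM in the itaconate libraries, 9.58, 13.8 and 16.3 in KO and 13.2, 14.2 and 18.7 in WT, ranges that overlapped.

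Lsm5, a subunit of both LSm rings, lies at chr6:56701063-56704710 on the minus strand. It was at 28.0, 26.0 and 25.5 CPM in the itaconate libraries, 8.50, 8.62 and 18.6 in KO and 14.3, 19.0 and 16.9 in WT. The itaconate libraries lay above all others, and KO 1 and KO 2 below all others. The log2 difference from KO was 1.16 ± 0.33 (SE), with an edgeR Benjamini-Hochberg adjusted p of 0.507, and it was 0.59 with pool as a term. Within the last 500 bases of the Lsm5 transcript, 44.0% of the 50-base stretches also occur in transcripts of other genes, so its counts are less certain than those of Lsm11, for which none do. The 8 LSm ring genes had 7 values above 0 and a median of 0.16 in this comparison, with a median SE of 0.32. Of all 10781 genes tested, 5219 had values above 0.

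For 4 of the 6 genes with lower values, Snrpd3, Prpf39, Prpf3 and Snrnp200, the highest libraries of all 9 were KO 1 and KO 2. Snrpd3, whose levels are given above, differed by -1.23 ± 0.40 (SE), and by -0.033 with pool as a term. Prpf39, at chr12:65036333-65063386 on the plus strand, was at 93.7, 138 and 48.6 CPM in KO and 40.5, 19.96 and 55.5 in the itaconate group, a difference of -1.27 ± 0.46 (SE) that became -0.26 with pool as a term. Its exons overlap by 599 bases with those of Fkbp3 on the other strand, and Fkbp3 was at 128, 96.9 and 49.5 CPM in KO and 55.3, 38.8 and 48.9 in the itaconate group. The libraries are strand-specific per the labels, but the strand setting of the counter is not given in the sources used here. Exons of Snrpd3 overlap with those of Gucd1 by 232 bases, and Gucd1 was at 9.77 and 14.7 CPM in KO 1 and KO 2, within its range of 5.61 to 19.4 over all libraries.

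Tri-snRNP genes made up 3 of the 6 with lower values. Prpf3, a U4/U6 protein gene, was at 45.4, 42.9 and 25.8 CPM in KO and 16.3, 15.2 and 20.6 in the itaconate group, without overlap, a difference of -1.13 ± 0.37 (SE) that became -0.66 with pool as a term. Snrnp200, which encodes the helicase that unwinds U4 from U6, was at 100, 58.2 and 32.0 CPM in KO and 26.6, 33.4 and 34.1 in the itaconate group, with KO 3 inside the range of the latter. Its difference, -1.02 ± 0.35 (SE), became -0.27 with pool as a term. Prpf8, the scaffold at the catalytic centre, was at 40.8, 50.4 and 41.7 CPM in KO and 36.3, 28.6 and 22.3 in the itaconate group, without overlap. The other 4 measured tri-snRNP genes, Prpf4, Prpf6, Prpf31 and Snrnp27, had log2 differences above 0, the largest being 0.61 for Prpf4.

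Snrnp35 was at 14.5, 16.6 and 7.18 CPM in KO and 8.03, 6.58 and 3.91 in the itaconate group, a log2 difference of -1.05 ± 0.39 (SE) that became 0.16 with pool as a term and -1.11 without the 4 libraries. Prpf18, a second-step factor, was at 38.0, 41.7 and 51.6 CPM in KO and 35.7, 105 and 101 in the itaconate group. Itaconate 1, the only library of that group to share a pool with a KO library, lay below all KO libraries, and the difference of 0.88 ± 0.38 (SE) became -0.53 with pool as a term and 0.78 without the 4 libraries. Among U2 genes the smallest p was that of Sf3a2, at 0.85 ± 0.52 (SE), from levels of 3.13, 3.93 and 6.00 CPM in KO and 6.10, 13.3 and 4.12 in the itaconate group. It was 0.24 without itaconate 2, 0.022 with pool as a term and 1.42 without the 4 libraries. The overlap of Sf3a2 exons with Plekhj1, given above, also leaves its low counts less certain. The edgeR Benjamini-Hochberg adjusted p was 0.507 for Snrpd3 and Prpf3, 0.52 for Prpf39, 0.523 for Snrnp35, 0.574 for Prpf18 and 0.687 for Sf3a2.

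The calls in this comparison changed when the 4 libraries against their Acod1 labels were left out. With KO 1 and 2 against itaconate 1 and 2, edgeR called 217 of 11342 genes (1.91%) and 5 members. These were Snrpd3 at -1.89, Prpf39 at -1.95, Prpf3 at -1.51, Snrnp200 at -1.43 and Lsm5 at 1.63 on the log2 scale. Their edgeR Benjamini-Hochberg adjusted p was 0.0137, 0.0167, 0.028, 0.0462 and 0.0229 in that order. For Snrpd3, Prpf39, Prpf3, Snrnp200 and Lsm5 the lowest adjusted p over every other edgeR or limma alternative was 0.0796, 0.0865, 0.133, 0.144 and 0.107, and the highest was 1. In that subset KO 1 and KO 2 are in pool 1 and the itaconate libraries in pools 2 and 3, so that pool and treatment cannot be told apart.

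**Figure D4:**
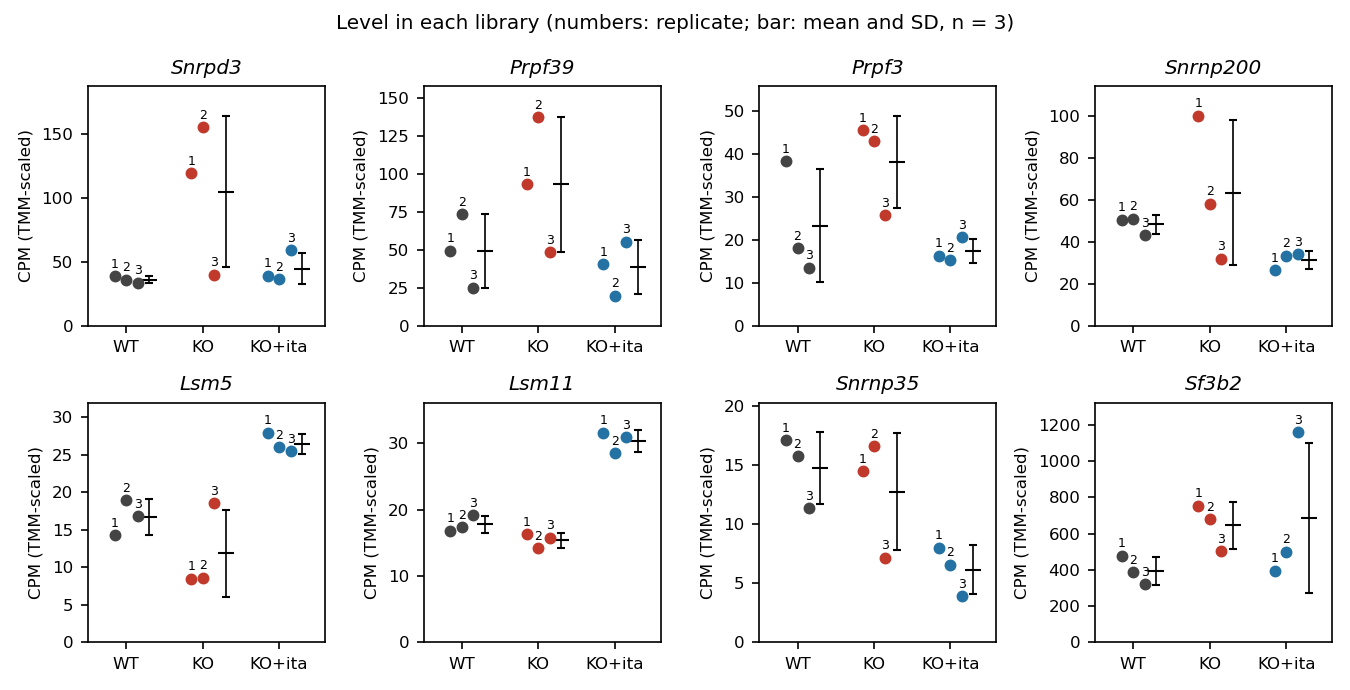
Level (CPM, TMM-scaled) of 8 genes in each library by labelled group; the small numbers are the replicates, and the bar gives the mean and SD of n = 3. KO 1 and KO 2 are high for Snrpd3, Prpf39 and Prpf3 and low for Lsm5, the 3 itaconate libraries sit together at 28.5 to 31.6 CPM for Lsm11, and itaconate 3 alone reaches 1158 CPM for Sf3b2.

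The third comparison, itaconate against WT, set the cells with added itaconate beside those labelled as making their own. No member was called by edgeR at an adjusted p under 0.05, as for all genes (0%), nor by limma-voom, nor by DESeq2 among the 41 of 53 members to which it gave an adjusted p. At an unadjusted p under 0.05 edgeR listed 4 of 52 members against 8.89% of all genes: Lsm11, Prpf6 and Sf3b2 with higher values and Snrnp35 with lower. The itaconate libraries lay wholly above WT for 5 members (Lsm3, Lsm5, Lsm11, Prpf6 and Sf3b6) against 7.3% of all genes, and wholly below for 3 (Snrpg, Snrnp35 and Snrnp200) against 7.25%. The median log2 difference was 0.042, against -0.011 over all genes, with 28 members higher and 24 lower.

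Snrnp35, the U11/U12 protein gene at chr5:124483134-124491124 on the plus strand, was at 17.2, 15.8 and 11.4 CPM in WT against 8.03, 6.58 and 3.91 in the itaconate group. The groups did not overlap, and the difference was -1.26 ± 0.39 (SE) with an edgeR Benjamini-Hochberg adjusted p of 0.515. It was -0.64 without the 4 libraries. Of the other U11/U12 genes, Snrnp25 differed by 0.18 and Snrnp48 by -0.27, both within their standard errors. Lsm11 differed by 0.77 ± 0.25 (SE), with an edgeR Benjamini-Hochberg adjusted p of 0.518, and by 0.65 without the 4 libraries.

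Prpf6, which bridges U5 and U4/U6 within the tri-snRNP, was at 65.3, 81.4 and 58.9 CPM in WT and 103, 112 and 107 in the itaconate group, without overlap. KO 1 lay higher still, at 139 CPM, with KO 2 and KO 3 at 91.5 and 71.6. The difference from WT was 0.65 ± 0.29 (SE), with an edgeR Benjamini-Hochberg adjusted p of 0.55. Lsm3, another subunit of both LSm rings, was at 18.003, 21.6 and 19.1 CPM in WT and 26.3, 29.9 and 31.9 in the itaconate group, a difference of 0.58 ± 0.28 (SE). Within its last 500 bases, 27.9% of 50-base stretches occur in other transcripts. Snrpg differed by -0.73 ± 0.35 (SE), from 10.1, 6.69 and 6.35 CPM in the itaconate group. Sf3b2 differed by 0.79 ± 0.37 (SE), and the value without itaconate 3 was 0.18, so that this difference rested on that library. Prpf40b and Prpf18 had the smallest p of their roles, at 0.48 ± 0.35 (SE) and 0.43 ± 0.38 (SE). The edgeR Benjamini-Hochberg adjusted p was 0.568 for Lsm3, 0.565 for Snrpg, 0.562 for Sf3b2, 0.686 for Prpf40b and 0.737 for Prpf18. Without the 4 libraries the log2 differences were 0.86 for Prpf6, 0.55 for Lsm3, -0.39 for Snrpg, 0.46 for Sf3b2, 0.68 for Prpf40b and 0.08 for Prpf18, and none was called. With 1 library left out, Prpf18 ran from 0.19 (without itaconate 2) to 0.78 (without itaconate 1).

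Other splicing genes, in lists drawn up from textbook roles, gave no call either. Of 21 measured further snRNP and tri-snRNP proteins, 26 proteins of the Prp19 complex, step factors and exon junction, 15 snRNP assembly factors, 11 SR proteins and 24 hnRNP proteins, none was called by edgeR in any comparison. At an unadjusted p under 0.05 edgeR listed 2, 1, 2, 2 and 2 of them, in that order, in KO against WT, where 3.13% of all genes were listed, 264 higher and 73 lower. All of those from the lists were higher in KO. In itaconate against KO, with 8.3% of all genes listed, the lists had 1, 2, 0, 0 and 2 higher and 1, 2, 1, 0 and 1 lower, and in itaconate against WT, with 8.89% of all genes listed, 1, 3, 1, 1 and 1 higher and 2, 0, 0, 0 and 0 lower. Crnkl1, a scaffold of the Prp19-associated complex, had a pattern like that of Snrpd3, at 46.2, 44.0 and 29.4 CPM in WT, 99.0, 141 and 56.9 in KO and 62.0, 40.4 and 65.0 in the itaconate group, and differed by 1.31 ± 0.35 (SE) between KO and WT. Hnrnph1, a regulator of alternative splicing, was at 62.1, 68.6 and 63.5 CPM in WT and 144, 142 and 79.2 in KO, and differed by 0.91 ± 0.30 (SE). Gemin5, which recognises small nuclear RNAs for Sm ring assembly, was at 8.88, 9.37 and 7.23 CPM in WT, 35.7, 14.4 and 37.4 in KO and 7.39, 8.33 and 57.7 in the itaconate group, and differed by 1.77 ± 0.64 (SE) between KO and WT.

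For the remaining lists the smallest p lay in itaconate against WT. Snu13, which binds the U4 RNA, was at 12.96, 14.6 and 15.4 CPM in WT, 11.6, 11.5 and 12.1 in KO and 8.50, 7.24 and 6.45 in the itaconate group. The 3 groups did not overlap, and the difference from WT was -0.95 ± 0.29 (SE). Srsf4, an SR protein gene, was at 16.8, 20.7 and 17.3 CPM in WT, 30.4, 30.2 and 28.0 in KO and 23.3, 26.0 and 45.6 in the itaconate group, a difference of 0.79 ± 0.30 (SE) between itaconate and WT. Its KO libraries, KO 3 included, all lay above the WT libraries. By edgeR with Benjamini-Hochberg adjustment, the adjusted p was 0.995 for the 3 differences between KO and WT, 0.515 for Snu13 and 0.529 for Srsf4. Without the 4 libraries the log2 differences were 2.05 for Crnkl1, 1.19 for Hnrnph1, 1.81 for Gemin5, -0.97 for Snu13 and 0.51 for Srsf4, and none was called. Srsf4 was at 0.43 without itaconate 3.

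Promoter sequence was examined for members that differed between the same libraries. RefSeq (GRCm38.p6) gave promoters, 250 bases before to 50 after a transcription start, for 44 of the 54 genes and 54 starts. Those of Lsm5, low in KO 1 and 2, and of Snrnp200 and Snrpd3, high in them, are printed 5′ to 3′ in the direction of the gene. Capitals mark CCGGAAG, the core bound by ETS-family factors, on either strand.
Lsm5: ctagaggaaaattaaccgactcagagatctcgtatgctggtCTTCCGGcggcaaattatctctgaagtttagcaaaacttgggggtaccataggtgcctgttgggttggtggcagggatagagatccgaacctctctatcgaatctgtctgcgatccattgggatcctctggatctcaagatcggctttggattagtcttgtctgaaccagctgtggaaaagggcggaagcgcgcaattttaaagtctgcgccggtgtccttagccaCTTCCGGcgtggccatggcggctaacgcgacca
Snrnp200: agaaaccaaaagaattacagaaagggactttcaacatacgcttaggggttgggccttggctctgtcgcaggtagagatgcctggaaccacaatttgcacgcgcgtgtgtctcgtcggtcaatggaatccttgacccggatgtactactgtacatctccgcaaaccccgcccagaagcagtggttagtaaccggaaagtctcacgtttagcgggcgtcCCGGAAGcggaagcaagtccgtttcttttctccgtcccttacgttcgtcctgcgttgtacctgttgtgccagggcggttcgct
Snrpd3: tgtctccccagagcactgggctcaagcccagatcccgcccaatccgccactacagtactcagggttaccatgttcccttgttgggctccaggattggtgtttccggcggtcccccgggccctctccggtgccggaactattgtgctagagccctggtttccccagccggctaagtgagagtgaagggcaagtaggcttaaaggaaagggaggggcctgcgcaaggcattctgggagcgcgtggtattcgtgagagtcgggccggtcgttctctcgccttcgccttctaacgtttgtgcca
The Lsm5 window is chr6:56704650-56704949 on the minus strand, the Snrnp200 window chr2:127208136-127208435 on the plus strand, and the Snrpd3 window chr10:75517792-75518091 on the plus strand, which has no match. The core occurred in 18 of 54 member promoters (33.3%), against 8.86% of all 32851 promoters and 18.7% of the 10953 promoters of genes tested. It was found both in a promoter of a gene high in KO 1 and 2 and in that of a gene low in them. GGGGCGGG, an SP1 motif, searched on both strands like the others, was in 12.96% of member promoters against 30.9% for genes tested, TATAAA in 7.41% against 6.98%, AAGATGGC, a YY1 motif, in 7.41% against 4.83%, and the NRF1 motif in 1.85% against 2.2%. The median GC content was 57.7% for member promoters and 60.7% for those of genes tested. Member promoters include those of Snrpn, which did not pass the filter, so the sets are not alike in this. Snrpn promoters have 40.3% to 48.0% GC, and that at chr7:60047929-60048228 holds TATAAA. A match is a string of letters, and no binding was measured.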

How the data were processed

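The authors deposited raw counts of reads per gene in 1 table, whole numbers for 9 libraries, and its 5 summary lines were dropped before library sizes were computed. Per the submitters' processing notes, STAR, HTSeq and the mm10 build were used; versions, annotation and strand setting are not given in the sources used here. Per the labels' protocols, barcoded oligo-dT-primed cDNA was pooled and amplified. No molecular identifier is mentioned, so copies of 1 molecule count separately. Symbols were found for 21745 of 22165 identifiers in GENCODE M21.

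Genes were filtered with filterByExpr (minimum count 10), scaled by TMM and tested with edgeR 4.0.16 (R 4.3.3, quasi-likelihood, all 9 libraries in 1 fit, Benjamini-Hochberg over 10781 genes, threshold 0.05). DESeq2 1.42.0, limma 3.58.1, other scalings and filters, pool, replicate block and left-out libraries were alternatives. Fold changes and adjusted p are given for the member with the smallest p in each role and comparison and the gene with the smallest p in each pathway list; others were named after their values were seen. Results of 1 member are not reported here. The members and lists were chosen with earlier results of these data known.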

Additional observations from a re-analysis of the deposited data

How the results depend on the processing

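Over 29 gene differences and up to 21 alternatives each, 571 of 581 values kept their direction and their side of the threshold. Of the rest, 4 came past it and 6 turned sign. None of the 29 was called in the main fit. A value of the same sign without a call was therefore counted as kept, whatever its size. The Snrpd3 difference in itaconate against KO was so counted at -0.033, with pool as a term, against -1.23 in the main fit. DESeq2 gave no adjusted p for 12 of the 29, which are counted by direction alone. With all 9 libraries and the filter on low counts, edgeR called 0 genes in every comparison. In KO against WT it was 1 by DESeq2 and 2 without the 4 libraries against their Acod1 labels, an alternative chosen after seeing the data. In itaconate against KO it was 80 with no filter on low counts, 15 by DESeq2, 0 to 6 with 1 library left out (6 without itaconate 1) and 217 without the 4 libraries, and the members called were 5 in the last setting alone. In itaconate against WT it was 92 with no filter, 18 by DESeq2, 0 to 4 with 1 library left out (4 without itaconate 1) and 1 without the 4 libraries. The members' median log2 difference in itaconate against KO ran from -0.041 to 0.16 with 1 library left out, being -0.04 without KO 1 and -0.041 without itaconate 1, and was 0.22 without the 4 libraries; in itaconate against WT it was 0.21 there. Snrnp35 in KO against WT turned to 0.073 with pool as a term, 0.092 in pool 1 alone and 0.47 without the 4 libraries, and ran from -0.44 to 0.095 with 1 library left out, turning without KO 3. With pool as a term, which there sets itaconate 1 against KO 3, Prpf18 turned to -0.53 and Snrnp35 to 0.16 in itaconate against KO. The cause was not tested. Library totals in place of TMM moved the median of all genes to -0.11 in itaconate against WT, and of the members to -0.061. Pool as a term could not be fitted for itaconate against WT, which share no pool. Depth limits the low genes: 3 reads are 0.147 to 0.408 CPM.

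Same-numbered libraries did not deviate together in every pair (correlations from -0.16 to 0.25). These correlations cannot show whether equal numbers share an animal or culture, which the labels do not state. The main fit used no pairing. With the replicate block the count of called genes and members was 0 in each comparison, and the members' medians were -0.067, 0.053 and 0.041 in KO against WT, itaconate against KO and itaconate against WT.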
